A study of Mus musculus with 2 samples.

Results

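The Cep and Ift genes encode proteins of the centrosome and of the primary cilium. They were taken here as the protein-coding genes of mouse chromosomes 1 to 19 whose symbols begin with Cep or Ift and a number, which gave 52 genes (38 Cep and 14 Ift) of 20665. The genes were found by symbol, but the set was selected on the presence of islands at gene ends in these libraries and on Hdac2 presence beside genes of like Hdac1 island width, so those values are given as a description and support nothing. The data were chromatin immunoprecipitations followed by sequencing of nephron progenitor cells, the fetal kidney cells from which nephron epithelium forms, taken from wild-type mice at E16.5 and cultured before crosslinking. The Hdac1 and Hdac2 immunoprecipitates gave 1 library each, and no treatment or genotype differed between them. The labels do not say how many embryos were used or how pure the cells were. Every comparison below is therefore a description of these 2 libraries without a test, and 95% Wilson intervals cover counting error only.

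A centrosome holds a pair of centrioles in a protein matrix, and in a resting cell the older centriole becomes the base of the primary cilium. Centriole assembly proteins build a new centriole beside each old one in every cell cycle, distal appendages dock the older one to the membrane, and the transition zone gates entry to the cilium. Intraflagellar transport carries cargo along the cilium, with IFT-B in the outward trains and IFT-A needed for return. In the kidney the primary cilium is known for its link to cystic disease. Hdac1 and Hdac2 are histone deacetylases that often sit at active promoters as well as in repressor complexes.

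Each file lists islands, which are stretches of mm10 where the authors' caller found more reads than background, in steps of 200 bp, with 1 value per island that is a p-value or q-value (nothing states which; a lower value means a stronger call within its list). Read depth is unknown. The Hdac1 list held 30182 islands and the Hdac2 list 20307. Among fixed marker lists, islands of both antibodies lay at 6 of 6 nephron progenitor genes, while 1 of 4 endothelial genes had Hdac1 and 0 had Hdac2. Of the ureteric bud genes 4 of 5 had Hdac1 and 2 had Hdac2, and of the stromal genes 4 of 4 and 2. An island does not measure expression, so these counts do not give the makeup of the culture.

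Nearly all Cep and Ift genes had Hdac1 and a minority had Hdac2. An Hdac1 island lay within 1 kb of a gene end at 48 of 52 genes (92.3%, interval 81.8 to 97.0%), beside 62.7% of all genes. An Hdac2 island lay there at 19 of 52 (36.5%, interval 24.8 to 50.1%), beside 33.4% of all genes. All 19 also had Hdac1, so that 29 genes had Hdac1 alone, 0 had Hdac2 alone and 4 had neither. Cep and Ift genes had like shares, with Hdac1 at 35 of 38 and 13 of 14, and Hdac2 at 14 of 38 and 5 of 14.

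Most islands sat on the gene ends themselves. The Hdac1 island covered the gene end at 46 genes, and lay 36 bp from it at Cep120 and 229 bp at Cep20. The nearest island outside the window was at Ift46, 1.34 kb from the end, followed by Cep41 at 3.28 kb, Cep295nl at 6.26 kb and Cep70 at 31.9 kb. For Hdac2 all 19 islands covered the end, and the nearest outside were at Ift43 (2.76 kb) and Cep290 (3.93 kb). In the 29 genes with Hdac1 alone no Hdac2 island overlapped the Hdac1 island anywhere. That was largely set by the definition, because most of these Hdac1 islands lie mainly inside the windows without Hdac2. The nearest Hdac2 island was a median of 29.6 kb from a gene end, with 23 of the 29 over 10 kb away.

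Strand, and with it the transcription start, was known for the 43 of the 52 genes that RefSeq's promoter table (GRCm38.p6, the assembly of mm10) holds. In all 43 an Hdac1 island lay over a listed promoter, 250 bases before to 50 after the start, against 62.2% of the 16457 genes in that table. Hdac2 lay over a promoter at 15 of 43 (34.9%, interval 22.4 to 49.8%), against 32.7% of the genes in that table. Among the 10241 genes with Hdac1 over a promoter it was 51.5%, and for genes of like Hdac1 width 47.5%. The far end of the gene was nearly free of islands: 1 of 43 genes, Cep85, had Hdac1 there, and 0 had Hdac2. Over all genes with a known strand the far end had Hdac1 at 11.5% and Hdac2 at 5.29%. Most of those far ends with Hdac1 were in genes with Hdac1 at both ends (9.52% of all). The shares are not adjusted for gene length, which had a median of 49.9 kb in the 52 genes and 17.5 kb in all genes.

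Of the 4 genes with no island at an end, 3 had an Hdac1 island over a promoter inside the annotated span. The listed start of these genes lies inward from the end of the span. Cep41, which acts in glutamylation of ciliary tubulin, had islands of both antibodies over its promoter, Hdac1 over 1.6 kb (chr6:30693001-30694600, 3.54e-27) and Hdac2 over 2.0 kb (chr6:30692201-30694200, 7.28e-05). Cep70, a centrosomal protein gene, likewise had both, at chr9:99242201-99244200 for Hdac1 (6.16e-38) and chr9:99241601-99243800 for Hdac2 (0.000137). Ift46, an IFT-B subunit gene, had Hdac1 alone (2.0 kb, chr9:44771801-44773800, 7.63e-23). The sequences below are the 250 bases before the listed start of these 3 genes, shown because they carry islands that the gene-end count misses, with matches to the motifs named further down in capitals. They are written in the direction of transcription. Cep41 lies on the minus strand at chr6:30693750-30693999, Cep70 on the plus strand at chr9:99243091-99243340 and Ift46 on the plus strand at chr9:44772759-44773008.
Cep41: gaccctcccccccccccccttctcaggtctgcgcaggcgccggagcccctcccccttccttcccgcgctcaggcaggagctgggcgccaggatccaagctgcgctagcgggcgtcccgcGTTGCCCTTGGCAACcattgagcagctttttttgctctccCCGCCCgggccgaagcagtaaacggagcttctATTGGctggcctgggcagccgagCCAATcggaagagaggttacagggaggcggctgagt
Cep70: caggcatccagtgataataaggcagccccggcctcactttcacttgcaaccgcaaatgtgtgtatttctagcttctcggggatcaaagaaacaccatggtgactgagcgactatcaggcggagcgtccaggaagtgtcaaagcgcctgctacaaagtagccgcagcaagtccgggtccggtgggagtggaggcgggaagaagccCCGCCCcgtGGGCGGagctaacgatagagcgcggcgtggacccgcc
Ift46: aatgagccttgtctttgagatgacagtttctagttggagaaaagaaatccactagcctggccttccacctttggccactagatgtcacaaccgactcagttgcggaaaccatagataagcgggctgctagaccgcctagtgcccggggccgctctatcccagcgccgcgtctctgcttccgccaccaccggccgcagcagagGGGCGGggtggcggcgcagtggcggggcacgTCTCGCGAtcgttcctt

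Cep295nl, with no listed promoter, was the only one of the 52 with no Hdac1 island at an end or in its body. Ift74 is a related case. Its listed promoter lies inside the span and carried its own Hdac1 island of 1.2 kb (1.14e-42), while the island counted at its end, 2.8 kb at chr4:94601001-94603800 (5.06e-96), also lay at the ends of Plaa and Gm12657.

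**Figure D1:**
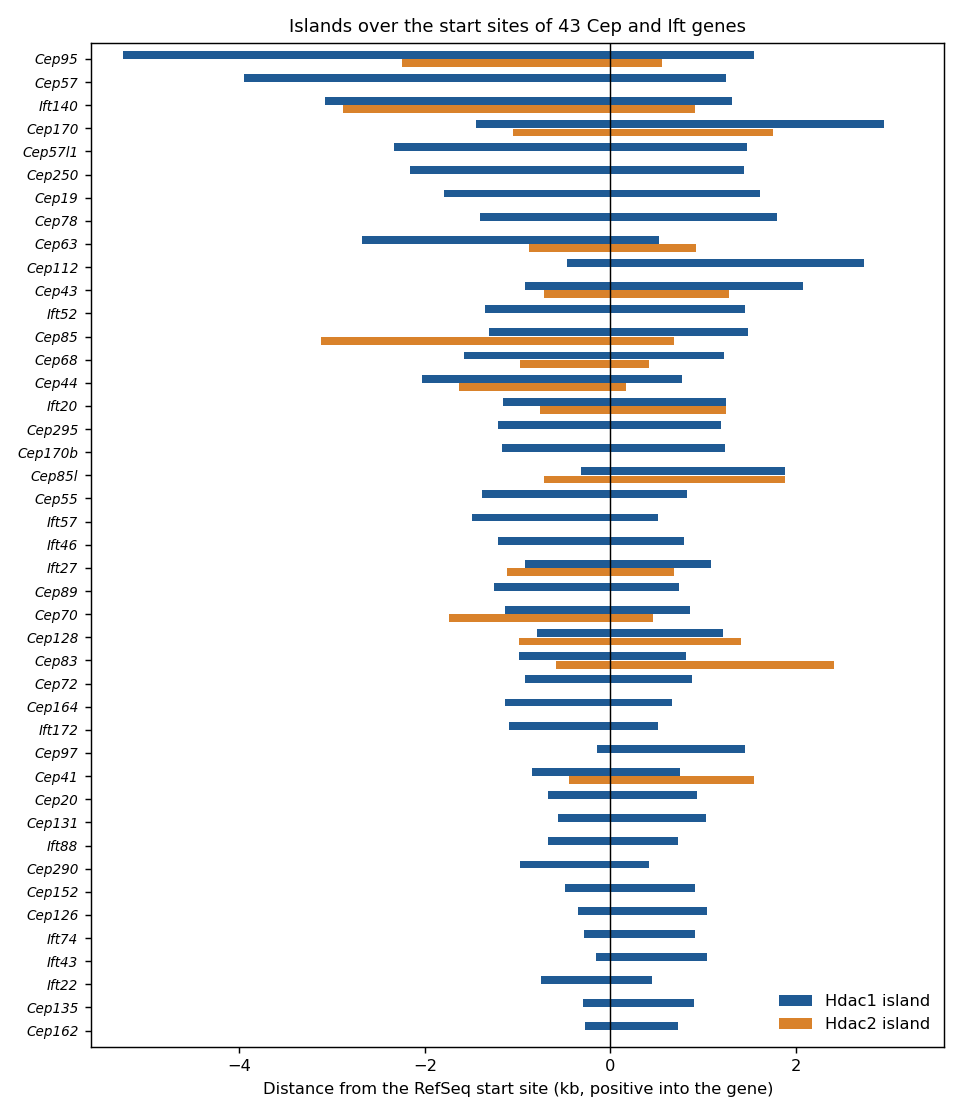
Extent of the islands over the RefSeq start site for the 43 genes with a listed promoter, in kb from the start (positive into the gene), ordered by Hdac1 width. Every gene has an Hdac1 bar (blue) across the start, and 15 also have an Hdac2 bar (orange).

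The Hdac1 islands at these genes were of ordinary width and fairly strong. The 48 islands ran from 1.0 to 6.8 kb with a median of 2.4 kb (interquartile range 1.75 to 3.20 kb), and the median over the other 12899 Hdac1 genes was also 2.4 kb. The median value was 1.33e-63, beside 6.63e-52 in the other genes. The 48 genes were longer than those others, with an interquartile range of 25.6 to 83.8 kb against 9.41 to 56.0 kb.

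Of the genes with the 8 widest Hdac1 islands, 4 had Hdac2, and at 7 the island also lay at an end of a neighbouring gene. At Cep95, a centrosomal protein gene, Hdac1 covered 6.8 kb (chr11:106784001-106790800, 1.55e-225) and Hdac2 covered 2.8 kb within it (5.17e-07). That Hdac1 island reached the end of Ddx5, an RNA helicase gene, head to head with Cep95. At Cep57, which anchors the centriole to its matrix, Hdac1 covered 5.2 kb (chr9:13825801-13831000, 1.59e-109) up to the end of Fam76b, and Hdac2 had no island within 58 kb of a gene end. Ift140 (chr17:25013001-25017400), Ift80 (chr3:69004001-69008400) and Cep170 (chr1:176811001-176815400) each had 4.4 kb. They were followed by Cep57l1 at 3.8 kb (chr10:41808401-41812200), Cep250 at 3.6 kb (chr2:155954401-155958000) and Cep19 at 3.4 kb (chr16:32098001-32101400). The last 3 had Hdac1 alone, with values of 1.68e-76, 7.25e-28 and 2.05e-29. The islands of Cep250 and Cep19 were wide but weaker than the median of the 48.

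By value the strongest Hdac1 islands were those of Ift140 (listed at 0), Ift80 (1.26e-264), Cep95 (1.55e-225), Cep135 (2.74e-213) and Cep55 (3.21e-176). The first 3 had Hdac2 and the last 2 did not. Cep135, a gene for a cartwheel protein of the new centriole, had its 2.74e-213 in an island of only 1.2 kb (chr5:76588401-76589600). Cep55, a gene for the midbody scaffold of cytokinesis, had 2.2 kb (chr19:38053601-38055800). The weakest were Cep20 (1.26e-08) and Ift172 (9.46e-17).

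Hdac2 values at these genes were higher, that is weaker within their own list, than at other Hdac2 genes. Their median was 1.01e-06 over 19 genes, beside 2.10e-08 over the other genes with both antibodies. The lowest were at Cep68, a gene for a linker protein between centrioles (1.4 kb, chr11:20249001-20250400, 9.68e-20), Cep76 (2.2 kb, chr18:67640201-67642400, 1.56e-12), Ift140 (3.8 kb, chr17:25013201-25017000, 5.25e-11), Cep170 (2.8 kb, chr1:176812201-176815000, 1.08e-10) and Cep120 (3.0 kb, chr18:53742801-53745800, 5.59e-10). The highest were at Cep83 (0.000376) and Ift122 (0.000366). When only the upper 50% of each list by value was kept, 7 genes still had Hdac2 (13.5%, beside 16.6% of all genes) and 47 had Hdac1 (90.4%, beside 54.4%). In all 19 genes the islands of the antibodies overlapped, against 96.3% of other genes with both. The Hdac2 island was narrower at 12 genes, equal at 1 and wider at 6, and it lay wholly inside the Hdac1 island at 10.

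**Figure D2:**
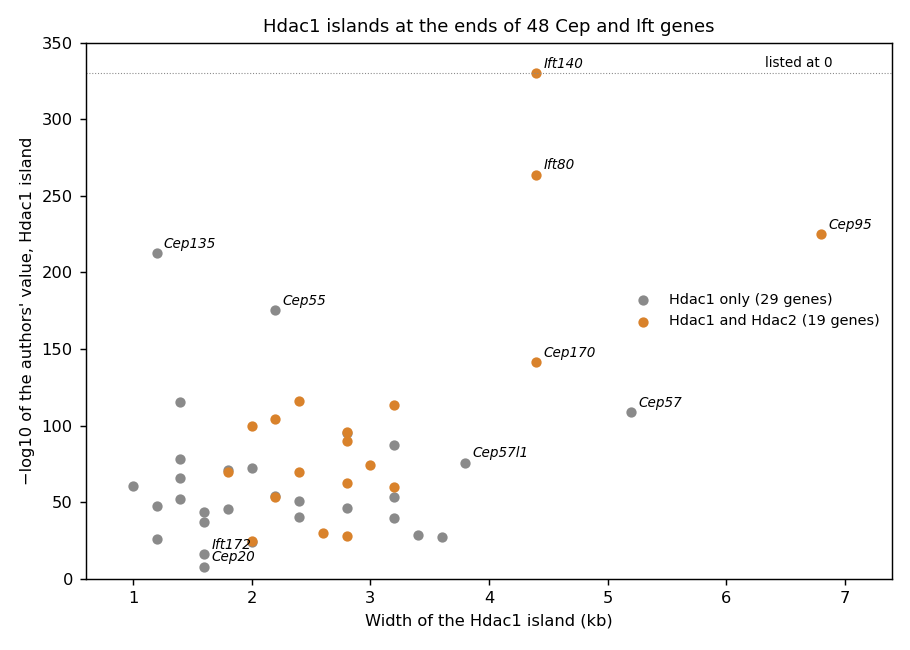
Authors' value of the Hdac1 island (−log10, higher is stronger) against its width in kb, for the 48 genes with an Hdac1 island at an end, by presence of Hdac2. Ift140 is listed at 0 and drawn on the dotted line. Cep135 and Cep55 are strong and without Hdac2, and Cep135 is also narrow.

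Hdac2 was counted at fewer of these genes than at other genes of the same Hdac1 width, a difference known when the set was chosen. Among all genes with Hdac1 at an end 51.7% had Hdac2, and among the 48 it was 19 (39.6%, interval 27.0 to 53.7%). For each of the 48, the share with Hdac2 was taken over all other genes with an Hdac1 island of exactly that width, between 29 and 1041 genes, and these shares ran from 17.0% at 1.0 kb (Cep162) to 89.7% at 6.8 kb (Cep95). Their mean was 51.1%, which corresponds to 24.5 of 48 genes and lies inside the interval of the observed share. Matching on decile of the Hdac1 value gave 28.7 genes in place of 24.5, and on deciles of width and value together 27.8. The last 2 matches put the mean share, at 59.7% and 57.9%, above the interval. So did windows of 5 kb (21 of 50 genes, 42.0%, beside 56.8%) and the start end alone (13 of 40, 32.5%, beside 49.1%), each against its own interval. This comparison was named when the genes were chosen, with the result in view, so it is a description. A share above an interval therefore cannot show that the difference exceeds counting error. Part of the difference lay in narrow islands: 0 of 8 genes with Hdac1 islands up to 1.4 kb had Hdac2, beside 20.8% of 2329 other genes, and 3 of 11 from 1.6 to 2.0 kb, beside 38.4%. Another part lay between 3.2 and 4.0 kb, where 2 of 8 had Hdac2 (interval 7.15 to 59.1%) beside 71.9% of 1981 others. The classes of width were set after the values were seen. In that class Cep63 and Cep76 had Hdac2, and those without were Cep19, Cep57l1, Cep78, Cep112, Cep192 and Cep250. From 2.2 to 2.4 kb (4 of 8 against 49.9%), from 2.6 to 3.0 kb (6 of 8 against 60.1%) and above 4.0 kb (4 of 5 against 82.9%) the members were near or above the others.

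**Figure D3:**
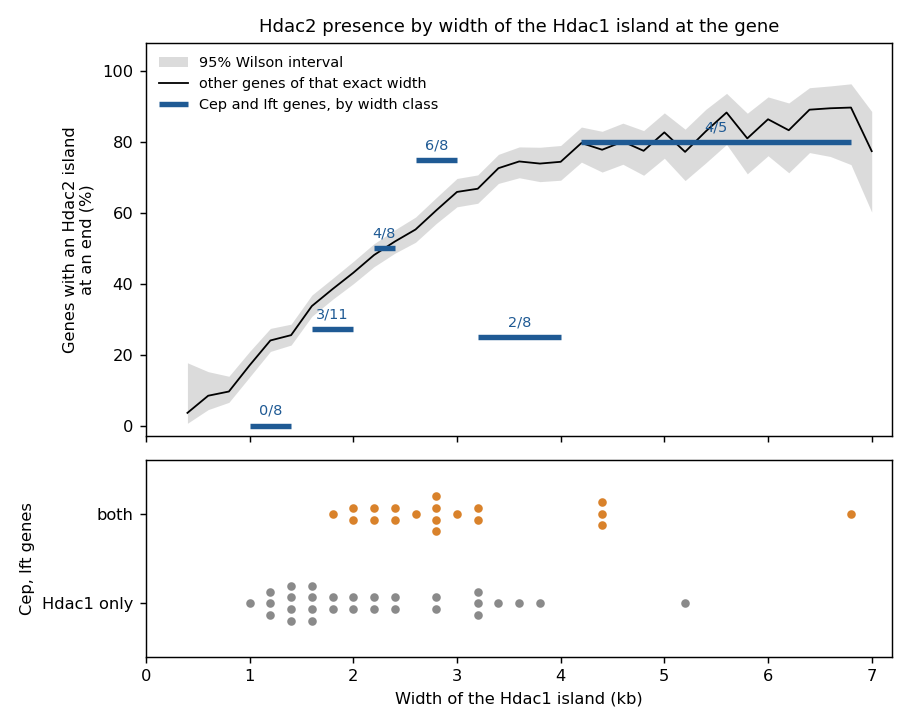
Upper panel, percentage of other genes with Hdac2 at an end for each exact width of the Hdac1 island in kb (line, with 95% Wilson interval; widths with at least 20 genes), and of Cep and Ift genes in 6 width classes (bars with counts). Lower panel, each Cep and Ift gene by its Hdac1 width. The members lie far under the line at 3.2 to 4.0 kb, where 2 of 8 had Hdac2.

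The 14 genes for centriole assembly and length all had Hdac1, and 7 had Hdac2, beside 7.7 for their widths. Cep63, whose protein recruits Cep152 to the old centriole, had both (3.2 kb, 2.42e-60, and 1.8 kb, 5.17e-09). Cep152, which recruits the kinase Plk4, had Hdac1 alone at its end (1.4 kb, 2.56e-116), and so did Cep192, its partner in that step (3.2 kb, 7.43e-88). Cep76, Cep120, Cep350, Cep44 and Cep85 also had both, among them Cep120, a gene for centriole elongation. Cep57, Cep57l1, Cep97, which caps centriole growth, Cep135 and Cep295 had Hdac1 alone. Cep85 was the one member with 2 Hdac1 islands at its ends.

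All 9 appendage and linker genes had Hdac1 and 4 had Hdac2, beside 5.0 for their widths. Among distal appendage genes, Cep83 had both (1.8 kb, 3.44e-70, and 3.0 kb, 0.000376) while Cep89 and Cep164 had Hdac1 alone. Of the genes for the subdistal part, Cep128 and Cep170 had both. Cep68 had both and Cep250, its partner in the linker, did not. Cep19 and Cep170b had Hdac1 alone.

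At the ends of the 7 genes for the ciliary base, transition zone and satellites no Hdac2 island was found, while 6 had Hdac1, beside 2.1 with Hdac2 for their widths. Cep290, the transition zone gene mutated in several ciliopathies, had 1.4 kb (8.51e-67), and Cep162, which brings Cep290 to the axoneme, had 1.0 kb (3.64e-61), the narrowest of the 48. Cep131 and Cep72, genes for satellite proteins, had 1.6 kb (4.08e-44) and 1.8 kb (4.20e-46). Cep126 had 1.4 kb and Cep78 had 3.2 kb. The median of the 6 was 1.5 kb, so these islands were narrow. The count of 0 allows a share of up to 39.0% by the Wilson interval, and the seventh gene, Cep41, had Hdac2 at its internal promoter.

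Of the 3 IFT-A genes, Ift122 and Ift140 had both antibodies and Ift43 had Hdac1 alone. At Ift140 an Hdac1 island listed at 0 contained the whole Hdac2 island of 3.8 kb, and it reached the end of Cramp1l, the gene head to head with it. Of the 11 IFT-B genes 10 had Hdac1 at an end and 3 had Hdac2, beside 4.7 for their widths. The 3 were Ift20, which also acts at the Golgi (1.01e-05), Ift27, a small GTPase gene (0.000188), and Ift80 (4.84e-09). Ift22, Ift52, Ift57, Ift74, Ift81, Ift88, the gene disrupted in the cystic Tg737 mouse, and Ift172 had Hdac1 alone. Ift81 and Ift74, whose proteins bind tubulin as a pair, were alike in that, but so were most IFT-B genes.

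Outside these groups, Cep55 at the midbody and Cep20 and Cep112 had Hdac1 alone, and Cep43, Cep85l and Cep95 had both. Cep43 and Cep20 encode related proteins of the centriole and its satellites.

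**Figure D4:**
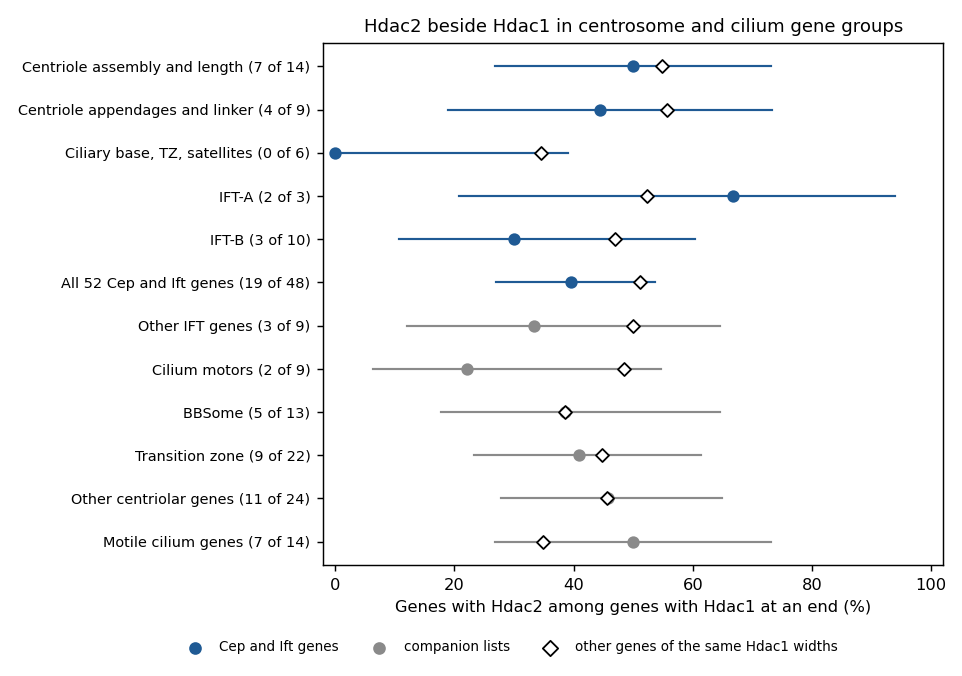
Percentage of genes with Hdac2 among those with Hdac1 at an end (circles, with 95% Wilson intervals; counts in the labels, TZ is transition zone) and the mean share of other genes with Hdac1 islands of the same widths (diamonds). The ciliary base genes are at 0 of 6, and the interval of every group shown includes its diamond.

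Once islands at the ends were set aside, the share of genes with an Hdac1 island in the body was near that of all genes. Counting all, Hdac1 lay in the body of 51 of 52 genes, beside 67.6% of all genes, and Hdac2 in 22, beside 40.3%. Leaving out islands that reach the ends, 12 genes (23.1%) had an Hdac1 island in the body, against 21.1% of all genes, and 4 (7.69%) had Hdac2, against 13.7%. The 4 were Cep41, Cep70, Cep112 and Cep128. These shares are not adjusted for gene length, and the members were longer (median 49.9 kb, against 17.5 kb for all genes). Some of the islands lay over a listed promoter inside the span, for Hdac1 at Cep41, Cep70, Ift46 and Ift74 and for Hdac2 at Cep41 and Cep70. Cep128, 386 kb long, had 3 Hdac2 islands deep inside it, at 98.9, 147 and 161 kb from the nearer end, the strongest at 6.21e-10, and no Hdac1 island there. Cep112, 435 kb long, had 1 island of each antibody deep inside it that lay apart, Hdac1 over 1.0 kb (5.05e-29) and Hdac2 over 2.4 kb (3.14e-07). In Cep70 a narrow pair, 0.6 kb for Hdac1 (4.30e-161) and 0.8 kb for Hdac2 (3.80e-19), lay over nearly the same bases at chr9:99218201-99218800 and chr9:99218001-99218800. That spot was not over a listed promoter, and it held the lowest value of any Hdac1 island inside a member off its ends.

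Many of the genes share their promoter region with a neighbour. At 18 of the 48 genes (37.5%) the Hdac1 island also lay at an end of another protein-coding gene, against 30.4% of other Hdac1 genes. At 12 or more the neighbour was head to head, with the start-side ends of both gene spans at most 2 kb apart as far as the table gives both strands, against 13.1% of other Hdac1 genes. Such neighbours were Sesn1 for Cep57l1, Anapc13 for Cep63, Fbxo8 for Cep44, Faap24 for Cep89, Pigx for Cep19, Tmtc3 for Cep290 and Tnfaip1 for Ift20. Among further neighbours, where 1 or both strands were not listed, Cep170 shared its island with Sdccag8, itself a centrosomal gene, Ift80 with the condensin gene Smc4 and Ift122 with Mbd4. Shared islands were wider (median 3.0 against 2.0 kb). Hdac2 was present at 10 of the 18 shared islands (55.6%, against 56.0% in other genes) and at 9 of the 30 islands at 1 gene only (30.0%, against 4488 of 8984 in other genes). Neither comparison is matched for width. For the 30 islands at 1 gene only, the share with Hdac2 in genes of like Hdac1 width was 44.5%. That lies inside the interval of the members' share (16.7 to 47.9%). An island at a shared region cannot be assigned to either gene.

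The Hdac1 islands were centred on the start site, whereas in other genes they leaned into the gene. Over the 43 genes the centre of the island lay at a median of -0.01 kb (interquartile range -0.27 to 0.22 kb, positive into the gene), beside 0.20 kb (-0.09 to 0.52 kb) in the other 10198 genes with Hdac1 over a promoter. The centre was downstream of the start at 21 of 43 genes (48.8%), beside 68.2%. Head to head genes had more upstream extent in both sets: where the listed start lay within 2 kb of the gene's own end, 2 of 11 members and 42.9% of 1579 other such genes had the centre downstream. Where no head to head neighbour was found, the centre was downstream at 18 of 28 members (64.3%) and 73.4% of 7756 other genes. Some neighbours have no listed strand, so a pair can be missed. Their median centres were 0.11 and 0.25 kb, so in both sets these islands leaned into the gene. With a head to head neighbour the medians were -0.43 kb in members and -0.08 kb in other genes. Cep41, Cep70, Ift46 and Ift74 are left out of these counts and medians because their listed starts lie more than 2 kb inside their spans. This limit was set after the values were seen. Without it the centre was downstream at 3 of 12 members with a head to head neighbour and at 18 of 31 (58.1%) with none found. For other genes it was 44.0% of 1638 and 72.9% of 8560.

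The promoters were rich in CpG. The ratio of observed to expected CpG had a median of 0.83 over the members' 50 listed promoters and 0.58 over 20035 promoters of other genes, and was 0.83 at other promoters with both antibodies and 0.73 at those with Hdac1 alone. Among the members it was 0.88 at 15 promoters with Hdac2 and 0.83 at 31 with Hdac1 alone, but the ratio was over 0.6 at 11 of the 15 (73.3%) and at 29 of the 31 (93.5%). The 4 listed promoters without an Hdac1 island had a median of 0.23, as had the other genes' promoters without Hdac1 at 0.19.

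An X-box is the site of RFX factors, known regulators of cilium genes. It was searched on both strands as GTNNCC and NGNAAC with 0 to 3 bases between them, and 9 of 43 genes (20.9%) held a match in the 300 bases, beside 6.28% of all 16457 genes in the table, 7.18% of genes with Hdac1 over a promoter and 5.51% of all promoters. The 9 were Cep19, Cep41, Cep44, Cep83, Cep112, Cep135, Ift22, Ift57 and Ift74. They held 12 positions in all, 10 of them centred before the start, and no match overlapped another motif searched. A match was present in 3 of the 15 genes with Hdac2 over the promoter, Cep41, Cep44 and Cep83, and in 6 of the 28 without. The sequences below, 1 match from each of 5 genes, are shown so that the repeat within the match can be seen, with the match in capitals and 5 bases on either side in small letters. They are written along the strand that matched, from chr6:30693866-30693880 for Cep41, chr11:108425182-108425195 for Cep112, chr16:49699207-49699220 for Ift57, chr5:136908117-136908130 for Ift22 and chr4:94614486-94614498 for Ift74. The strand is the gene's own for Cep41, on the minus strand, and for Cep112 and Ift22, on the plus strand, and opposite to the gene (minus) for Ift57 and Ift74.
Cep41: cccgcGTTGCCCTTGGCAACcattg
Cep112: ggagcGTCGCCATGGCAACagagt
Ift57: agccgGTCACCACGGCAACcagac
Ift22: tcccgGTCGCCGTGGAAACtgacc
Ift74: gccgcGTATCCTAGCAACggtca

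Of the other motifs, searched on both strands, CCAAT was in 24 of 43 genes (55.8%, beside 42.3% of all genes and 42.7% of those with Hdac1 over a promoter). It was in 6 of 15 genes with Hdac2 over the promoter and 18 of 28 without. The GC box GGGCGG was in 30 (69.8%, beside 50.3% and 72.3%), in 11 of 15 with Hdac2 and 19 of 28 without. The ETS site CCGGAAG was in 7 (16.3%, beside 13.3% and 19.7%). The cyclic AMP site TGACGTCA, the NRF1 site GCATGCGC, the palindromic element TCTCGCGA, the E2F site TTTNGCGC and TATAAA were each in 2 genes (4.65%), beside 2.63%, 3.99%, 1.53%, 2.01% and 15.0% of all genes and 3.80%, 5.98%, 2.39%, 2.97% and 8.24% of genes with Hdac1 over a promoter. A match is a run of letters and not a bound site.

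Genes of the same structures with other symbols, from lists drawn up for this description, had Hdac1 about as often. Of 83 such genes found, 77 had Hdac1 (92.8%) and 30 had Hdac2 (36.1%), beside 34.7 for their Hdac1 widths. The lists were other IFT subunits together with Tulp3, cilium motors together with Kif7, BBSome, transition zone, and other centriolar genes. For transport genes the counts were lower than for their widths. Of 9 other IFT genes with Hdac1, 3 had Hdac2 (4.5 for their widths): Hspb11, which encodes Ift25, Wdr35 and Ttc30a1, a near-identical copy of Ttc30a2, so that reads of the pair are uncertain. Of 9 motor genes 2 had it (4.4), Tctex1d2 and Dync2li1, and the kinesin-2 genes Kif3a and Kif3b did not. In the BBSome list it was 5 of 13 (5.0), in the transition zone list 9 of 22 (9.8) and in the centriolar list 11 of 24 (11), among them Sass6 (3.2 kb, 1e-220, and 2.2 kb, 1.93e-07) and Plk4 (2.4 kb, 2.58e-145, and 1.0 kb, 2.16e-17), which start centriole assembly. Genes without Hdac1 were Cluap1, Ttc30a2, Kifap3, Cetn3, Cntln and Nin.

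Of 18 motile cilium genes 14 had Hdac1 (77.8%) and 7 had Hdac2 (38.9%), beside 4.9 for their Hdac1 widths. Among the 7 was Gas8, whose islands of both antibodies were 87.4 kb wide and listed at 0. The next widest Hdac1 island of the list was 5.2 kb (Ccno), so the count and the match at Gas8 are unlike the rest. Foxj1, the master regulator of motile cilia, had both (2.0 kb, 1.27e-77, and 3.4 kb, 3.06e-06). The median Hdac1 width of this list was 1.7 kb and its median value 3.12e-33, beside 2.4 kb and 1.33e-63 in the Cep and Ift genes. The 4 without Hdac1 were Ccdc39, Dnah5, Drc1 and Rsph4a.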

How the data were processed

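The 2 deposited files hold SICER islands, 1 list per antibody, each with positions and a p-value or q-value (which of them is not said) that the authors computed against background. Per the submitters' processing notes, the tools named are SICER and BWA 0.7.5a (mm10), with FastQC, bedtools 2.17 and SAMtools 1.3.1. The version and settings of SICER, its background library and the depth were not given in the sources used here. Per the labels' protocols, each library came from 500 pg of DNA amplified for 12 cycles or more, so reads are not independent molecules. SICER joins windows, so edges are coarse. Positions are printed 1-based. Genes were protein-coding RefSeq genes of GRCm38.p6. An island counted at 1 bp of overlap, and a gene's island was the one with the lowest value. Starts, strands and sequences came from RefSeq's promoter table, and a gene missing there was left out of those counts. Tables were made in pandas 2.3.3 and numpy 2.4.6, intervals in scipy 1.17.1 and figures in matplotlib 3.10.9 (Python 3.11.15). The counting was tested on simulated islands. The members and lists were chosen with earlier results of these data known. Members given in full are those with the 8 widest Hdac1 islands, the 5 lowest values per antibody or no Hdac1 at an end, and further ones to illustrate a role. One member is counted but not reported here by name. Other companion genes named were chosen after their values were seen.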

Additional observations from a re-analysis of the deposited data

How the results depend on the processing

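No paired analysis was possible because each antibody has 1 library, and for the same reason no replicate could be left out. With windows of 500 bp or 5 kb, 200 bp of overlap, the start end only, the upper 50% of islands or RefSeq promoters (added after the values were seen), Hdac1 was counted at 40 of 43 genes with a strand to 50 of 52, while 54.4 to 68.6% of all genes had it. The Hdac2 count ran from 7 to 21, with 7 under the upper 50% of islands, where 16.6% of all genes had Hdac2. The Hdac2 share minus that of genes of like Hdac1 width was -11.5 percentage points. It was below 0 in all 15 alternatives, from -20.1 (decile of value) to -9.7 (Ift genes only). In 4 of the 15 the share of like genes lay above the interval of the members' share. The set was chosen with this difference in view, and the alternatives recount the same genes, or part of them, in the same libraries. Their common sign is therefore no support for the difference. Genes with a body island fell from 51 to 12 for Hdac1 and from 22 to 4 for Hdac2 without islands at the ends, and the Hdac2 count was 9 with the upper 50% of islands. Unknown depth limits what a missing Hdac2 island shows.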
